A study of Mus musculus with 10 samples.

Results

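The collagen genes were examined in the abdominal aorta of KCASP1Tg mice, which develop dermatitis, and of WT mice. The members are all probe sets that the platform annotation assigns to exactly 1 gene symbol made of Col, a number, a and a number. They were 82 of 45037 probe sets and represent 42 of the 18193 genes with 1 symbol. The KCASP1Tg group held 6 mice that carry human caspase-1 under the keratin 14 promoter, which is active in keratinocytes and not in the vessel wall, and the WT group held 4 C57BL/6 littermates without the transgene. All mice were female, and RNA was taken at 16 weeks of age. The labels name a separate mouse for each of the 10 arrays, but the methods speak of fewer mice, so that n counts arrays and some arrays may share a mouse. The tissue is labelled as dechorionated abdominal aorta, a term that the labels do not explain. The comparison asks what differs in a large artery when the skin is chronically inflamed. Where a gene has more than 1 probe set, values are those of its brightest one over the 10 arrays unless another is named.

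Collagens are triple-helical proteins of the extracellular matrix, built from 3 alpha chains, and each kind of chain has a gene of its own. Fibrillar collagens (types I, III and V in the vessel wall) form the fibres that carry load in the media and the adventitia, and type V is thought to nucleate these fibres. Type IV collagen forms the network of the basement membrane under the endothelium and around each smooth muscle cell, and types XV and XVIII, the multiplexins, lie in the basement membrane zone. FACIT collagens sit on the surface of fibres and link them to other matrix. Type VI collagen makes beaded microfilaments around cells. Most interstitial collagen of an artery is made by fibroblasts and smooth muscle cells.

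The authors scaled each array to a trimmed mean signal of 500, and between 54.9% and 58.3% of its probe sets reached a signal of 100. The limma test took in probe sets that reached 100 on 4 or more arrays, which left 48 collagen probe sets and 27 collagen genes. Markers of the vessel wall were present on all arrays. The summed signal of 8 smooth muscle genes (among them Acta2 and Myh11) was 34163 to 90491 on the KCASP1Tg arrays and 77989 to 89176 on the WT arrays, and that of 9 fibroblast genes (among them Pdgfra and Dcn) was 55649.9 to 97332 on the KCASP1Tg arrays and 75939.5 to 83102 on the WT arrays. No fibroblast or smooth muscle marker was below 100 on all arrays. The median log2 fold change (KCASP1Tg minus WT) was -0.32 for the smooth muscle list and -0.30 for the fibroblast list. Single fibroblast genes ran from -0.95 (Dpt) and -0.93 (Lum) to 0.23 (Mfap5, the only one above 0). Gsn and Dcn, which make up most of the fibroblast sum, had -0.11 each. Smooth muscle genes ran from -0.61 (Des, lower on every KCASP1Tg array than on every WT array) to -0.13 (Acta2). KCASP1Tg 4 stood apart, as it had the lowest sum of both lists and the highest sum of 6 lymphocyte genes, at 13106 against 1444 or less on the other arrays. Skeletal muscle genes (8) summed to 19744 on KCASP1Tg 4 and 19874 on WT 1, against 291 to 1795 on the other arrays. Schwann cell genes (4) summed to 9849 to 16899 on the KCASP1Tg arrays and 10504 to 21229.8 on the WT arrays, with KCASP1Tg 3 lowest, WT 4 at 10504 and the other WT arrays at 19325 or more, and S100b, a marker of these cells, was lower on every KCASP1Tg array than on every WT array (list median -0.45). Liver genes (8) summed to 23792 to 37820 on the KCASP1Tg arrays and to 164722, 34150, 82783 and 20405 on WT 1 to 4. WT 1 and WT 3 were thus high, and WT 4 was the lowest of all arrays. The list median was -4.76, with albumin (Alb) at 72.9 to 2366 on the KCASP1Tg arrays and 998 to 43055 on the WT arrays. Heart muscle genes (8) summed to 948 to 35805 on the KCASP1Tg arrays and 2673 to 72027 on the WT arrays. Fat genes (7) summed to 107554 to 175885 on the KCASP1Tg arrays and 122813 to 150075 on the WT arrays (list median 0.14). Endothelial genes (8) summed to 11906 to 17316 on the KCASP1Tg arrays and 13977 to 16865 on the WT arrays (list median -0.01). Mesothelial genes (7) summed to 527 to 3017 on the KCASP1Tg arrays and 874 to 2472 on the WT arrays (list median 0.02). KCASP1Tg 4 had the lowest sum of the fat, endothelial and mesothelial lists. The part of these cells and tissues in the collagen values was not tested. In RNA of a whole tissue, fewer cells of a type and less RNA per cell cannot be told apart.

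Signals of most collagen genes were lower in KCASP1Tg aorta than in WT aorta, and no collagen gene passed the test over all probe sets. Of the 27 genes tested, 25 had a log2 fold change (KCASP1Tg minus WT) below 0, where 49.8% of all 12295 genes tested did. Their median was -0.41, against 0.00 over all genes tested. Of the 48 collagen probe sets, 0 were called lower and 0 higher at an adjusted p under 0.05 (limma, Benjamini-Hochberg), against 0% and 0.0686% of all probe sets and 0% and 0.0895% of all genes. At an unadjusted p under 0.05, 9 of the 27 genes were lower and 1 was higher, where 3.42% and 4.67% of all genes were. Of the 48 probe sets, 14 were lower and 1 was higher at that level, against 3.42% and 4.52% of all probe sets, and 7 had every KCASP1Tg array below every WT array, against 0.949%. The reverse held for 0 of them, against 1.98%. For 5 genes, Col3a1, Col5a1, Col6a1, Col6a3 and Col15a1, every KCASP1Tg mouse was below every WT mouse, which held for 1.04% of all genes tested. The reverse was seen for 0 collagen genes, and for 2.29% of all genes. For groups that do not overlap, the exact two-sided Mann-Whitney test always gives p = 0.00952 before adjustment, the smallest value that 6 arrays against 4 allow. For these 5 genes it therefore only restates the separation.

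**Figure D1:**
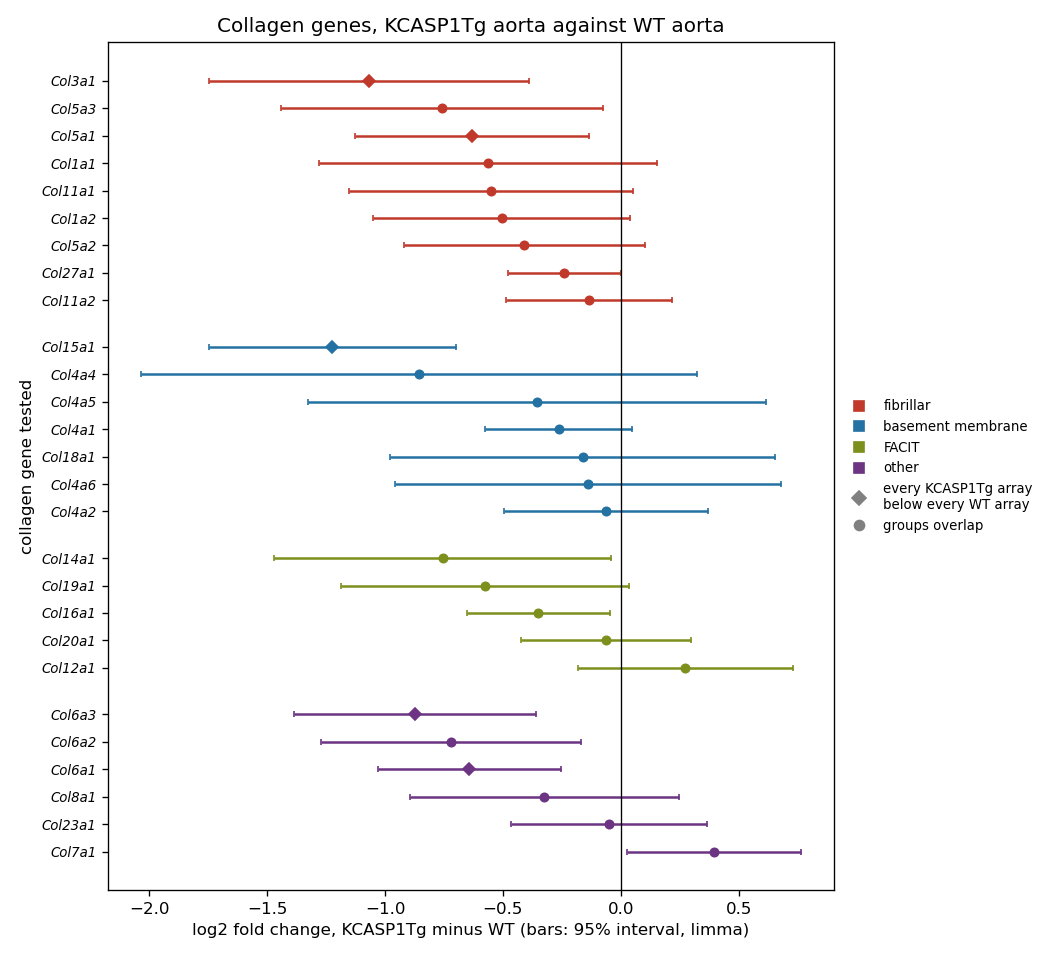
Log2 fold change (x axis, KCASP1Tg minus WT) of the 27 collagen genes tested (y axis), with 95% intervals from limma as bars and 1 colour for each collagen group. Diamonds mark the 5 genes with every KCASP1Tg array below every WT array, and only Col7a1 and Col12a1 lie above 0.

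These counts moved with single arrays. Without KCASP1Tg 4 the same 5 genes kept separate groups, the median was -0.34, and 21 of 27 genes were below 0. The 4 genes that turned were Col18a1 (0.15), Col4a6 (0.10), Col4a2 (0.060) and Col4a5 (0.0057), all of the basement membrane group. The values of Col1a1 (-0.34), Col1a2 (-0.34), Col5a2 (-0.26), Col4a1 (-0.16), Col4a4 (-0.40), Col19a1 (-0.37) and Col8a1 (-0.12) kept their direction but were closer to 0. The log2 fold changes of Col20a1 and Col23a1 were 0.01 and 0.02 without KCASP1Tg 3, and that of Col4a6 was 0.12 without WT 4. With KCASP1Tg 4 left out, 1 collagen probe set, the second one of Col3a1, was called lower, against 0.0309% of all probe sets. Without KCASP1Tg 3 there were 10 genes with separate groups (1.62% of all genes), and without WT 3 or WT 4 there were 8 (1.5% and 2.63%). With array weights, which let the more variable arrays count less, 5 collagen probe sets were called lower (2 of Col3a1 and 1 each of Col6a1, Col6a3 and Col15a1), against 0.24% of all probe sets.

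The promoters of the 5 genes with separate groups are shown as RefSeq gives them (build GRCm38.p6, 250 bases before to 50 after the gene start, 5′ to 3′ on the strand of the gene) because the arrays of the genotypes did not overlap for these genes as deposited. Capitals mark 3 short motifs that were searched on both strands and that do not overlap each other in the windows printed. The motif of the factor NF-Y was searched as CCAAT and, on the opposite strand, as the letters ATTGG there. The GC box of the factor Sp1 was searched as GGGCGG and, on the opposite strand, as the letters CCGCCC there. The TATA box was searched as TATAAA and, on the opposite strand, as the letters TTTATA there.
Col3a1 chr1:45311288-45311587 (+ strand): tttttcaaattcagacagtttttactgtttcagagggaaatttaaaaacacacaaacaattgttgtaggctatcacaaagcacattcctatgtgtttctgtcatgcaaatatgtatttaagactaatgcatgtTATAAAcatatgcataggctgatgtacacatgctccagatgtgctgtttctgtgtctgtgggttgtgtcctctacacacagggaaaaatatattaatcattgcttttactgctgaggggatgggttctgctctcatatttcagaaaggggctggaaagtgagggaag
Col5a1 chr2:27886175-27886474 (+ strand): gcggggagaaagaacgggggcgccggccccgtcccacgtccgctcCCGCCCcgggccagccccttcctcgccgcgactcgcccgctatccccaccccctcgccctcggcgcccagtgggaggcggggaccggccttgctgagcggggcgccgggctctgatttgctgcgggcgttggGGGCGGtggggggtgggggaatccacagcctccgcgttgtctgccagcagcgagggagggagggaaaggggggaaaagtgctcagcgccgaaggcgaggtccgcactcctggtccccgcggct
Col15a1 chr4:47207762-47208061 (+ strand): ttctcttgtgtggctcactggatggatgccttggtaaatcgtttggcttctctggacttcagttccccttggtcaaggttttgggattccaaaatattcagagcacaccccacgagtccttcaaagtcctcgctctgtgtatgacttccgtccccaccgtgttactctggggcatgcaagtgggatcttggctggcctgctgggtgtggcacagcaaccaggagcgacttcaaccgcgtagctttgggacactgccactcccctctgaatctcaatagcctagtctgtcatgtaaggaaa
Col6a1 chr10:76725995-76726294 (- strand): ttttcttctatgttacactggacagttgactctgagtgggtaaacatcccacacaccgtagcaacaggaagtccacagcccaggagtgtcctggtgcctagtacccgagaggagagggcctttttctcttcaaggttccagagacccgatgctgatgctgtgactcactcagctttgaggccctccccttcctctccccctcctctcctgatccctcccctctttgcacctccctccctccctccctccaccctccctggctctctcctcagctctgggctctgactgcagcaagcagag
Col6a3 chr1:90843922-90844221 (- strand): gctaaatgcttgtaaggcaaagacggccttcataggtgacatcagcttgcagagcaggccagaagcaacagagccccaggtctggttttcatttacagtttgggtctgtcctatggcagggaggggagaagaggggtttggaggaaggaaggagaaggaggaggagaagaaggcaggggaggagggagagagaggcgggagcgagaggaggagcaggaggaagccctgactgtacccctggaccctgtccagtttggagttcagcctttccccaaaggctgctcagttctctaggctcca
The Col3a1 window held 1 TATAAA and the Col5a1 window 2 GC boxes, and the other 3 windows held none of the motifs. Promoters of 33 of the 42 collagen genes were in the table, with 36 windows. Of these windows 61.1% held GGGCGG, 36.1% CCAAT and 13.9% TATAAA, against 35.7%, 37.4% and 13.6% of all 32851 windows. A match is a description of letters and not a binding site.

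Among the fibrillar genes, all 9 tested had log2 fold changes below 0, with a median of -0.55 (-0.34 without KCASP1Tg 4), and 0 passed the test. Col3a1, which encodes the only chain of type III collagen, was furthest from WT. Its signals were 9347, 11609.5, 16392, 4153, 8729.7 and 7981 on the KCASP1Tg arrays, against 19152, 17221, 20455 and 18428 on the WT arrays. The highest KCASP1Tg signal, in KCASP1Tg 3, was below the lowest WT signal. The means were 9702 ± 4079.8 (SD, n = 6) in KCASP1Tg mice and 18814 ± 1353 (SD, n = 4) in WT mice, with -1.07 as the log2 fold change (95% interval -1.75 to -0.39, adjusted p = 0.367 from limma), or 0.477 times the WT level. A second probe set of Col3a1 had 638, 731, 801, 182, 492 and 612 on the KCASP1Tg arrays, against 1239.7, 1425, 1758 and 1655 on the WT arrays. It gave a log2 fold change of -1.53 (95% interval -2.34 to -0.71, adjusted p = 0.238). Both probe sets had separate groups, and KCASP1Tg 4 was the lowest mouse on each. With array weights Col3a1 passed (adjusted p = 0.0367, range over all settings 0.0367 to 0.844). After each array was centred on its median, the groups of Col3a1 and Col5a1 overlapped, and those of Col15a1, Col6a1 and Col6a3 did not.

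Col1a1 and Col1a2 encode the 2 chains of type I collagen, the main fibre protein of the adventitia. Col1a1 had signals of 735, 876, 1182, 302, 595 and 612 on the KCASP1Tg arrays, against 1256, 760.1, 989 and 969.7 on the WT arrays. Col1a2 had 12434, 14086, 20243, 6771, 11858 and 10791 on the KCASP1Tg arrays, against 15952, 16288, 18082 and 18253 on the WT arrays. For both genes KCASP1Tg 3 reached or passed the WT level, and the groups overlapped. The log2 fold change was -0.56 for Col1a1 (95% interval -1.28 to 0.15, adjusted p = 0.734) and -0.51 for Col1a2 (95% interval -1.05 to 0.04, adjusted p = 0.666). The further probe sets gave -0.72 for Col1a1 and -0.71 and -0.67 for Col1a2.

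None of the 3 type V chains passed the test. Col5a1 had signals of 874, 1028, 1176, 468, 968 and 818 on the KCASP1Tg arrays, against 1332, 1379, 1193 and 1402 on the WT arrays. These groups did not overlap, and the log2 fold change was -0.63 (95% interval -1.13 to -0.13, adjusted p = 0.496). For its 2 further probe sets the groups overlapped, with log2 fold changes of -0.49 and -0.43. Col5a2, which lies next to Col3a1 on chromosome 1, had 2642, 2812, 4401, 1557, 2573 and 2293 on the KCASP1Tg arrays, against 3319.6, 3638, 3442 and 3352 on the WT arrays. Its groups overlapped through KCASP1Tg 3 alone, and the log2 fold change was -0.41 (adjusted p = 0.729). Col5a3, the third type V chain, had 643, 542, 324, 697, 572 and 1005 on the KCASP1Tg arrays, against 1121, 1319.6, 1179 and 595 on the WT arrays. Here the lowest mouse was KCASP1Tg 3 and not KCASP1Tg 4, and WT 4 lay among the KCASP1Tg mice. The log2 fold change of Col5a3 was -0.76 (95% interval -1.44 to -0.07, adjusted p = 0.567).

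The type XI and type XXVII chains, known best from cartilage, were measured at low or moderate signals. Col11a1 had 73.8 to 162 in KCASP1Tg aorta and 114 to 278 in WT aorta (log2 fold change -0.55). Col11a2 had 80.0 to 124 in KCASP1Tg aorta and 89.8 to 125 in WT aorta (-0.13 on the same scale). Col27a1 had 712 to 973 in KCASP1Tg aorta and 912 to 1019.7 in WT aorta, a log2 fold change of -0.24 with an interval of -0.48 to 0.00. The groups of all 3 genes overlapped. Of 8 cartilage markers, 3 were below 100 on all arrays, and their summed signal was 670.3 to 1034 on the KCASP1Tg arrays and 756 to 1132 on the WT arrays.

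**Figure D2:**
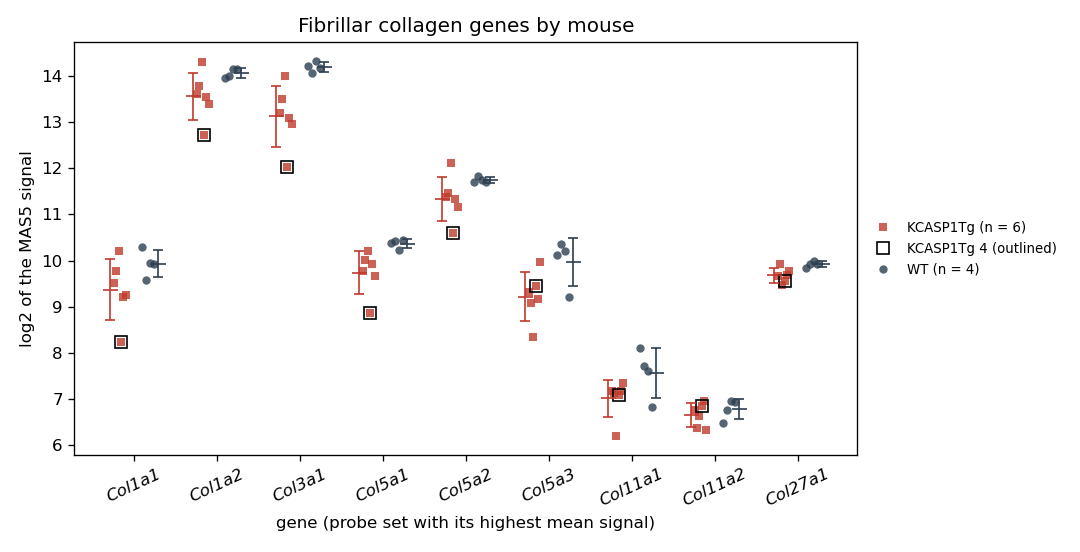
Log2 of the MAS5 signal (y axis) of the 9 fibrillar collagen genes tested (x axis) in each KCASP1Tg mouse (squares, n = 6) and each WT mouse (circles, n = 4). Lines give mean and SD. KCASP1Tg 4, outlined, is the lowest point for Col1a1, Col1a2, Col3a1, Col5a1 and Col5a2, and the Col3a1 and Col5a1 squares lie below all circles.

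Of the 7 basement membrane genes tested all had log2 fold changes below 0, with a median of -0.26, but without KCASP1Tg 4 the median was 0.0057. Col15a1, the chain of type XV collagen, which anchors basement membranes to the fibres around them, was lower in every KCASP1Tg mouse. Its signals were 305, 309, 221, 171, 304 and 350.1 on the KCASP1Tg arrays, against 627, 548, 488 and 926 on the WT arrays. The lowest WT mouse was above the highest KCASP1Tg mouse. The means were 276 ± 66.7 (SD, n = 6) in KCASP1Tg mice and 647 ± 194 (SD, n = 4) in WT mice. The log2 fold change was -1.22 (95% interval -1.75 to -0.70, standard error 0.24, adjusted p = 0.120 from limma), or 0.428 times the WT level, and it had the smallest adjusted p of the 27 collagen genes. With array weights it passed (log2 fold change -0.93, adjusted p = 0.0243, range over all settings 0.0243 to 0.744). Without KCASP1Tg 4 its log2 fold change was -1.09.

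Col18a1, the chain of the other multiplexin, type XVIII, from which endostatin is cut, had 2891, 2183, 3121, 697, 1957 and 2686 on the KCASP1Tg arrays, against 2313, 2157, 2119.9 and 2566 on the WT arrays. Apart from KCASP1Tg 4 the KCASP1Tg mice lay around the WT mice. The log2 fold change was -0.16 (95% interval -0.98 to 0.65, adjusted p = 0.973), and 0.15 without KCASP1Tg 4. The interval is wide enough to hold both a loss and a gain of over 1.5-fold.

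Col4a1 and Col4a2 form the type IV network of nearly all basement membranes. Col4a1 had 4098, 4202, 4548, 2775, 4111 and 4068 on the KCASP1Tg arrays, against 4765, 4555, 4403 and 5138 on the WT arrays. It was below the WT range in 5 of 6 KCASP1Tg mice, with a log2 fold change of -0.26 (95% interval -0.58 to 0.05, adjusted p = 0.706). Col4a2 had 3440.3, 4328, 4812, 2262, 3656 and 2992 on the KCASP1Tg arrays, against 3644, 3454, 3387 and 4109 on the WT arrays. Its KCASP1Tg values lay on both sides of the WT values, with a log2 fold change of -0.06 (95% interval -0.50 to 0.37, adjusted p = 0.985), and 0.060 without KCASP1Tg 4.

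Col4a4, Col4a5 and Col4a6 encode chains of type IV networks with a narrower distribution. Col4a5 had 1262, 1110.0, 1681, 279, 972 and 1378 on the KCASP1Tg arrays, against 975, 1214, 1194 and 1746 on the WT arrays, and its log2 fold change was -0.36 (95% interval -1.33 to 0.61). Col4a4 had 192, 188, 147, 24.0, 116 and 154 on the KCASP1Tg arrays, against 216, 294, 149 and 195 on the WT arrays, and its log2 fold change was -0.86 (95% interval -2.04 to 0.32). Among the 27 genes tested these had the widest spread over the 10 arrays, and KCASP1Tg 4 was the lowest mouse for both. Without it the log2 fold change was 0.0057 for Col4a5 and -0.40 for Col4a4. Col4a6 had 184 to 623 in KCASP1Tg aorta and 334 to 789 in WT aorta, a log2 fold change of -0.14 (0.10 without KCASP1Tg 4).

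Among the collagens that are neither fibrillar, FACIT nor of the basement membrane, the 3 chains of classical type VI collagen, Col6a1, Col6a2 and Col6a3, had log2 fold changes below 0, and none passed the test. Col6a1 had 2165, 2086, 2630.4, 1280.2, 2049 and 2099 on the KCASP1Tg arrays, against 2945, 3177, 3339 and 3091 on the WT arrays. Col6a3 had 2477, 2452, 3605, 1282, 2456 and 2424 on the KCASP1Tg arrays, against 3997, 4136, 4645 and 4443 on the WT arrays. The groups did not overlap for either gene, and 4 of the 6 KCASP1Tg mice lay close together for Col6a3, between 2424 and 2477. The log2 fold change was -0.64 for Col6a1 (95% interval -1.03 to -0.26, standard error 0.17, adjusted p = 0.332) and -0.87 for Col6a3 (95% interval -1.39 to -0.36, standard error 0.23, adjusted p = 0.308). Both passed with array weights (adjusted p = 0.0323 and 0.0263, ranges over all settings 0.0323 to 0.834 and 0.0263 to 0.828). Col6a2 had 2753, 3344, 4291, 1455, 3059 and 2759.7 on the KCASP1Tg arrays, against 4443, 4680.2, 4259 and 5139 on the WT arrays. Its groups overlapped only because KCASP1Tg 3 slightly passed WT 3, and a second probe set did not overlap. The log2 fold changes of these 2 probe sets were -0.72 (adjusted p = 0.478) and -0.70 (adjusted p = 0.485).

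Col8a1, a chain of the short-chain network collagen type VIII made by endothelium and smooth muscle, had 362, 394, 499, 177, 431 and 421 on the KCASP1Tg arrays, against 434, 504, 502 and 389 on the WT arrays. The groups overlapped, and KCASP1Tg 4 was again the lowest (log2 fold change -0.32, or -0.12 without it, 95% interval -0.89 to 0.25, adjusted p = 0.835). A second probe set of Col8a1 that was tested gave a log2 fold change of -0.09 (95% interval -0.43 to 0.26). Col7a1, which forms the anchoring fibrils under the epidermis, was the only collagen gene with an unadjusted p under 0.05 and a higher level in KCASP1Tg aorta. It had 154, 156, 211, 109, 163 and 139 on the KCASP1Tg arrays, against 107, 112, 114 and 132 on the WT arrays, a log2 fold change of 0.40 (95% interval 0.03 to 0.76, adjusted p = 0.592). All values lay between 107 and 211, and KCASP1Tg 4 was among the WT mice. Of 5 keratinocyte markers 3 were below 100 on all arrays, and their summed signal was 299.96 to 473 on the KCASP1Tg arrays and 354 to 396 on the WT arrays. Col23a1, a membrane collagen, had 108 to 215 in KCASP1Tg aorta and 123 to 162 in WT aorta, and its 2 probe sets tested gave -0.05 and 0.14 on the log2 scale.

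**Figure D3:**
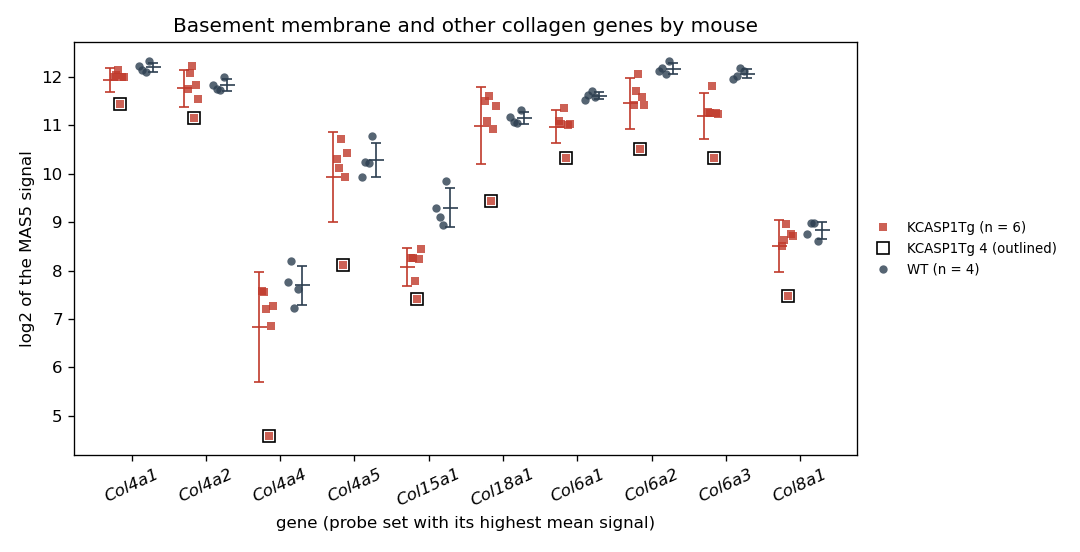
Log2 of the MAS5 signal (y axis) of 6 basement membrane genes and 4 other collagen genes (x axis) in each KCASP1Tg mouse (squares, n = 6) and each WT mouse (circles, n = 4). Lines give mean and SD. For Col15a1, Col6a1 and Col6a3 all squares lie below all circles, and KCASP1Tg 4, outlined, is the lowest point of every gene plotted.

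Of the 5 FACIT genes tested 4 had log2 fold changes below 0, with a median of -0.35. Col14a1 encodes type XIV collagen, which binds the surface of fibres and is made by adventitial fibroblasts. Its signals were 1883, 2913, 4719, 1195, 2542 and 1642 on the KCASP1Tg arrays, against 3669.8, 3539.7, 4193 and 3812 on the WT arrays. KCASP1Tg 3 was above the WT range and the other 5 were below it. The log2 fold change was -0.76 (95% interval -1.47 to -0.04, adjusted p = 0.593), and a second probe set gave -0.69. Col16a1, of type XVI, had 408, 395, 450.2, 509, 449.8 and 554 on the KCASP1Tg arrays, against 539, 626, 692 and 495 on the WT arrays. This was the gene with the narrowest interval of the group, at -0.65 to -0.05 around a log2 fold change of -0.35 (adjusted p = 0.550), and KCASP1Tg 4 was within the range of the other KCASP1Tg mice. Col19a1 had 72.4 to 182 in KCASP1Tg aorta and 167 to 267 in WT aorta (log2 fold change -0.57). Col20a1 had 84.8 to 153 in KCASP1Tg aorta and 107 to 126 in WT aorta (log2 fold change -0.06). Col12a1, the type XII chain, had 219.7 to 485 in KCASP1Tg aorta and 267 to 312 in WT aorta, and was the only FACIT gene above 0 (log2 fold change 0.27, 95% interval -0.18 to 0.73, adjusted p = 0.821). Its groups overlapped.

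The other 15 collagen genes were too dim to enter the test, and their log2 fold changes are given as a description. Of the fibrillar genes, Col2a1, the type II collagen of cartilage, had 4.47 to 15.1 in KCASP1Tg aorta and 5.21 to 10.2 in WT aorta (log2 fold change 0.22). Col24a1 had 3.09 to 32.9 in KCASP1Tg aorta and 0.939 to 44.0 in WT aorta (0.29). Col4a3, of the basement membrane group, had 40.6 to 98.2 in KCASP1Tg aorta and 10.99 to 98.8 in WT aorta (0.22). All these groups overlapped. Of the FACIT group, the 3 type IX chains of cartilage were dim. Col9a1 had 11.1 to 105 in KCASP1Tg aorta and 13.5 to 146 in WT aorta (-0.24) and Col9a2 had 1.65 to 10.4 in KCASP1Tg aorta and 4.02 to 44.3 in WT aorta (-0.93). Col9a3 had 10.7 to 20.5 in KCASP1Tg aorta and 7.21 to 11.9 in WT aorta (0.71, p = 0.019 in the exact Mann-Whitney test, two-sided and unadjusted), the clearest difference of the 15 genes, at signals far below the limit of 100. Col22a1 had 43.1 to 93.1 in KCASP1Tg aorta and 18.4 to 99.9 in WT aorta (0.65).

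Among the dim genes of the other collagens were 2 further type VI chains. Col6a4 had 15.03 to 90.6 in KCASP1Tg aorta and 8.25 to 60.2 in WT aorta (log2 fold change 0.08) and Col6a5 had 25.7 to 57.8 in KCASP1Tg aorta and 24.9 to 65.6 in WT aorta (-0.25). Col8a2, the partner of Col8a1 in type VIII collagen, had 27.1 to 86.5 in KCASP1Tg aorta and 46.6 to 68.9 in WT aorta (-0.35). Its groups overlapped. Col10a1, of growth plate cartilage, had 2.53 to 34.5 in KCASP1Tg aorta and 1.67 to 37.3 in WT aorta (-0.18). Of the membrane-spanning collagens, all but Col23a1 were dim. Col13a1 had 51.5 to 98.8 in KCASP1Tg aorta and 17.7 to 107 in WT aorta (0.12). Col17a1, of the junction between epidermis and dermis, had 2.33 to 28.7 in KCASP1Tg aorta and 2.90 to 6.29 in WT aorta (0.53), and Col25a1 had 16.0 to 29.1 in KCASP1Tg aorta and 11.8 to 45.2 in WT aorta (-0.01). Col26a1 had 7.24 to 75.0 in KCASP1Tg aorta and 12.6 to 79.7 in WT aorta (-0.62). For some dim genes a further probe set, also too dim to test, had the opposite sign. These were Col26a1 (1.55), Col9a1 (1.56), Col22a1 (-0.66), Col6a4 (-1.26) and Col4a3 (-0.46), whereas the further probe sets of Col9a3 and Col25a1 kept the sign. No dim gene had separate groups.

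Chains that are known to assemble into 1 molecule were compared over the arrays in 6 pairs. Col6a1 and Col6a3 had a Pearson r of 0.99 within the 6 KCASP1Tg mice (exact permutation p = 0.00972, adjusted over the 6 pairs 0.0187) and a Spearman rho of 0.77 (exact p = 0.103, adjusted 0.154). As the genotypes were separate for both genes, no r over all 10 mice is given. Without KCASP1Tg 4 the r within KCASP1Tg was 0.98. Over all 10 mice Col1a1 and Col1a2 had an r of 0.93 (permutation p = 0.00045, adjusted 0.0009) and a rho of 0.83 (permutation p = 0.00487, adjusted 0.0146), and r was 0.92 without KCASP1Tg 4 and WT 1, the mice farthest from the median of Col1a1. Within KCASP1Tg r was 0.99 (exact p = 0.00278, adjusted 0.00833), or 0.96 without KCASP1Tg 4. The type I chains varied together in both views. Over all 10 mice Col5a1 and Col5a2 had an r of 0.91 (permutation p = 0.00076, adjusted 0.00114) and a rho of 0.81 (permutation p = 0.00756, adjusted 0.0151), and r was 0.69 without KCASP1Tg 4 and KCASP1Tg 6, the mice farthest from the median of Col5a1. Within KCASP1Tg r was 0.92 (exact p = 0.0125, adjusted 0.0187), or 0.90 without KCASP1Tg 4. Over all 10 mice Col6a1 and Col6a2 had an r of 0.96 (permutation p = 0.00044, adjusted 0.0009) and a rho of 0.76 (permutation p = 0.0147, adjusted 0.0221), and r was 0.94 without KCASP1Tg 4 and WT 3, the mice farthest from the median of Col6a1. Within KCASP1Tg r was 0.97 (exact p = 0.0278, adjusted 0.0333), or 0.83 without KCASP1Tg 4. The rank order of these within KCASP1Tg did not pass, with a rho of 0.49 (exact p = 0.356, adjusted 0.427). Over all 10 mice Col4a1 and Col4a2 had an r of 0.79 (permutation p = 0.0156, adjusted 0.0188) and a rho of 0.60 (permutation p = 0.0751, adjusted 0.0902), and r was 0.32 without KCASP1Tg 4 and WT 4, the mice farthest from the median of Col4a1. Within KCASP1Tg r was 0.89 (exact p = 0.00139, adjusted 0.00833), or 0.86 without KCASP1Tg 4. Among pairs whose r over all mice passed the test, only that of the type IV chains fell this far without the 2 mice. Within KCASP1Tg their rank order was the same, with a rho of 1 (exact p = 0.00278, adjusted 0.0167). The WT mice also had 1 order for both genes, from WT 4 as the highest to WT 3 as the lowest. Over all 10 mice Col8a1 and Col8a2 had an r of 0.26 (permutation p = 0.482, adjusted 0.482) and a rho of 0.09 (permutation p = 0.811, adjusted 0.811), and r was -0.28 without KCASP1Tg 4 and WT 2, the mice farthest from the median of Col8a1. Within KCASP1Tg r was 0.18 (exact p = 0.733, adjusted 0.733), or -0.39 without KCASP1Tg 4. Col8a2 was below the signal limit, and no relation passed the test. The permutations over all 10 mice ignored genotype, so those r and rho values also hold any shift between the genotypes that both genes share. The arrays share their scaling and the mix of cells in each sample, so these values describe the mice and not a control of 1 gene by another.

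Col4a1 and Col4a2 are transcribed in opposite directions from neighbouring starts, and their RefSeq windows share 78 bases. Both windows are shown for this shared start, with the same 3 motifs in capitals.
Col4a1 chr8:11312777-11313076 (- strand): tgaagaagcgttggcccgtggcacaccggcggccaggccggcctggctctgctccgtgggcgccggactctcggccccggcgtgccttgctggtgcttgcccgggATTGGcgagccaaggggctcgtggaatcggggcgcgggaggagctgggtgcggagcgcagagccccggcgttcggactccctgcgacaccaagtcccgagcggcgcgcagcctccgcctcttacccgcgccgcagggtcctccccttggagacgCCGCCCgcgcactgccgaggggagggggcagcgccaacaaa
Col4a2 chr8:11312555-11312854 (+ strand): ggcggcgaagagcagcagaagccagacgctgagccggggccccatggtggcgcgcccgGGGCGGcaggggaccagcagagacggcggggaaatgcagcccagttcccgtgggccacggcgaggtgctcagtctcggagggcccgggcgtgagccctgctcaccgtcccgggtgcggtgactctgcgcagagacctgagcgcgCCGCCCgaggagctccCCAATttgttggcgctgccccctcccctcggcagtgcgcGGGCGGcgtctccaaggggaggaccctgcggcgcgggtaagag
Each window held 1 CCAAT motif, and there was 1 GC box in the Col4a1 window and 3 in the Col4a2 window. The Col4a1 box lies in the shared bases and is the last of the 3 Col4a2 boxes, read on the other strand. Col4a1 over Col4a2 was 1.19, 0.971, 0.945, 1.23, 1.12 and 1.36 on the KCASP1Tg arrays, against 1.31, 1.32, 1.30 and 1.25 on the WT arrays. The WT mice lay within a narrow range, with KCASP1Tg 6 above it and the other KCASP1Tg mice below it. The mean log2 ratio differed by -0.20 (KCASP1Tg minus WT), or -0.22 without KCASP1Tg 4.

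As Col3a1 was further from WT than its partners in the fibre, ratios of 2 chains within an array were computed for 7 pairs. They were chosen after the values were seen, and are given as a description with no test. Such a ratio leaves out the scaling of the array. Its size has no meaning between probe sets, but its difference between the genotypes has. Col3a1 over Col1a2 was 0.752, 0.824, 0.810, 0.613, 0.736 and 0.740 on the KCASP1Tg arrays, against 1.20, 1.06, 1.13 and 1.01 on the WT arrays. Every KCASP1Tg mouse was below every WT mouse, with KCASP1Tg 4 the lowest, and the mean log2 ratio differed by -0.56 (-0.51 without KCASP1Tg 4). Col3a1 over Col5a2, its neighbour on the chromosome, was 3.54, 4.13, 3.72, 2.67, 3.39 and 3.48 on the KCASP1Tg arrays, against 5.77, 4.73, 5.94 and 5.498 on the WT arrays, a difference of -0.66. Col3a1 over Col1a1 differed by -0.50, again with separate groups.

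By contrast, Col1a1 over Col1a2 ranged from 0.0446 to 0.0622 in KCASP1Tg mice and from 0.0467 to 0.0787 in WT mice (difference -0.06 on the log2 scale). Col15a1 over Col18a1 was 0.105, 0.141, 0.0709, 0.245, 0.155 and 0.130 on the KCASP1Tg arrays, against 0.271, 0.254, 0.230 and 0.361 on the WT arrays. Here KCASP1Tg 4, the lowest mouse for each of the genes, was above WT 3, and the difference was -1.06, or -1.24 without this mouse. Col6a3 over Col6a1 differed by -0.23.

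**Figure D4:**
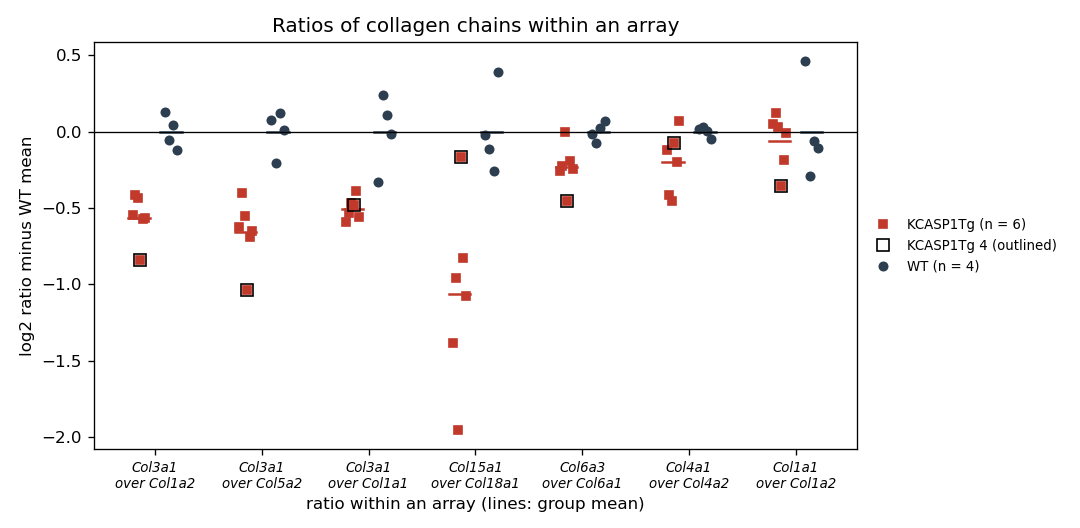
Log2 ratio of the signals of 2 collagen genes within an array, minus the mean of the WT arrays (y axis), for 7 ratios (x axis) in each KCASP1Tg mouse (squares, n = 6) and each WT mouse (circles, n = 4), with lines at the group means. The squares of the 3 ratios with Col3a1 on top lie below all circles, and those of Col1a1 over Col1a2 do not.

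The position of each mouse was given as the mean deviation of the 27 genes from their means over the 10 arrays. It was -0.05, -0.06, 0.13, -0.86, -0.11 and -0.08 on the log2 scale in KCASP1Tg 1 to 6, and 0.23, 0.28, 0.26 and 0.26 in WT 1 to 4. The WT mice were thus close together, and KCASP1Tg 4 was far below all others. KCASP1Tg 4 had the lowest signal of all mice for 18 of the 27 genes, where this held for 23.1% of all genes tested. Its deviation was -1.40 for the basement membrane genes, -0.84 for the other genes, -0.69 for the fibrillar genes and -0.43 for the FACIT genes. The smooth muscle sum of this mouse was 34163, against 72709 or more in the other KCASP1Tg mice, and the part of this in the collagen values was not tested. For the fibrillar genes every KCASP1Tg mouse (-0.69 to -0.02) was below every WT mouse (0.19 to 0.39). For the basement membrane, FACIT and other genes the groups overlapped.

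**Figure D5:**
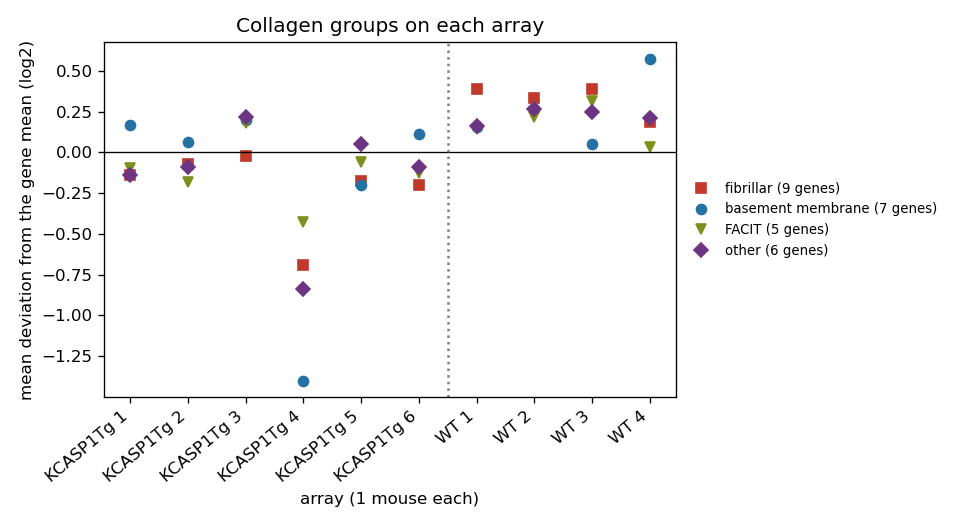
Mean deviation of the collagen genes tested from their means over the 10 arrays (y axis, log2) on each array (x axis, KCASP1Tg 1 to 6 and WT 1 to 4), for the 4 collagen groups. KCASP1Tg 4 lies lowest in each group, and the fibrillar squares of all KCASP1Tg arrays lie below those of all WT arrays.

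Genes that fold, cut and bind collagen were read from lists kept apart from the family. Of 21 genes of collagen folding and modification tested, 0 were called in either direction and the median log2 fold change was -0.06. Plod2, the lysyl hydroxylase that acts on the telopeptides, had 595, 551, 381, 286, 398 and 537 on the KCASP1Tg arrays, against 725, 740.4, 961 and 879 on the WT arrays. Every KCASP1Tg mouse was below every WT mouse (log2 fold change -0.89, 95% interval -1.35 to -0.42, adjusted p = 0.223). Serpinh1, the collagen chaperone HSP47, had 3379 to 6461 (median 5809) on the KCASP1Tg arrays, against 6394 to 9407 on the WT arrays, with a log2 fold change of -0.52 (adjusted p = 0.559). For P3h2, a prolyl 3-hydroxylase, the value was -0.33 (adjusted p = 0.533). The prolyl 4-hydroxylase subunit P4hb, which is also the general disulfide isomerase, had -0.06 (95% interval -0.28 to 0.17).

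Of 10 genes of propeptide processing and fibril assembly tested, 0 were called and 9 were below 0, with a median of -0.35. Lum, a proteoglycan that binds fibrils and is also on the fibroblast list, had 2432 to 7611 (median 3964) on the KCASP1Tg arrays, against 6383 to 9236 on the WT arrays (log2 fold change -0.93, adjusted p = 0.440). Sparc, a collagen-binding glycoprotein, had -0.38 (adjusted p = 0.694), and Pcolce, which enhances removal of the C-propeptide, -0.41 (adjusted p = 0.706). Dcn, the proteoglycan decorin, which is on the fibroblast list too, had -0.11 (95% interval -0.37 to 0.15). Of 9 collagen receptors and uptake genes tested, 0 were called, with a median of -0.13. Mrc2, the uptake receptor Endo180 of fibroblasts, had -0.48 (adjusted p = 0.596), and 2 receptors of leukocytes were above 0, Mrc1 of macrophages at 0.44 (adjusted p = 0.738) and Lair1 at 0.39 (adjusted p = 0.880), which was 0.10 without KCASP1Tg 4.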

How the data were processed

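RNA of abdominal aorta was hybridised to whole-genome mouse GeneChips, with 6 KCASP1Tg and 4 WT arrays, each labelled as its own mouse. The p-values measure the spread between these arrays. The deposited values are linear signal intensities, which the authors made with MAS5 and which scale to a trimmed mean of 500 on each array. Differences of MAS5 signal include noise at low intensity, so a signal limit was used. Of 45101 probe sets, 64 controls were left out. Signals under 1 were set to 1 and converted to log2. Probe sets at 100 or more on at least 4 arrays (26242) were tested between the genotypes with limma (version 3.58.1, R 4.3.3, lmFit and eBayes), and p-values were adjusted over all of them by Benjamini-Hochberg, with 0.05 as the threshold. The steps were tested on simulated data. Gene names came from the platform annotation. Matching to the current RefSeq table (GRCm38.p6) changed no symbol of the 82 collagen probe sets. Single values were compared with exact Mann-Whitney tests, and correlations with permutation tests (1e+05 resamples over 10 mice, exact within a group). The number of arrays limits the precision. The members and lists were chosen with earlier results of these data known. Values for each array were given for the main chains of vessel wall collagens (types I, III, IV, VI, VIII, XV and XVIII, and Col5a1 and Col5a2), the 8 collagen genes with the smallest limma p and the 4 with the highest SD over the 10 arrays, 17 genes in all, and for Col7a1 and Col14a1. From each further list the 3 genes with the smallest limma p were named, and P4hb, Dcn, Col7a1 and Col14a1 were shown after their values were seen. Replicate numbers were not treated as pairs of mice in the main test. Alternatives changed the floor, pseudocount, filter, scaling, model and arrays. Plots were made in Python 3.11.15 (matplotlib 3.10.9).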

Additional observations from a re-analysis of the deposited data

Results flagged for a closer look

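In 8 of 72 groups of mice examined (27 collagen genes and 9 further genes, in each genotype), 1 mouse lay further from the others than Dixon's 95% limit allows, a limit that chance alone passes in about 1 of 20 groups. KCASP1Tg 4 was the low mouse in 6 of them. Its signal was 697 for Col18a1, 2775 for Col4a1, 24.0 for Col4a4, 279 for Col4a5, 1280.2 for Col6a1 and 177 for Col8a1. KCASP1Tg 4 was also the high mouse for Lair1, the collagen receptor of leukocytes, at a signal of 346, and had the highest sum of lymphocyte markers. KCASP1Tg 3 was the low mouse for Col11a1, at 73.8, where the nearest KCASP1Tg mouse had 136. KCASP1Tg 4 also had a high sum of skeletal muscle markers (19744), and KCASP1Tg 3 the lowest sum of Schwann cell markers (9849). The part of these cells in these values was not tested.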

How the results depend on the processing

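The median log2 fold change of the 27 collagen genes was below 0 in every setting run (-0.57 to -0.26). Of 373 alternative values of the 17 genes named in full, 364 kept direction and side of the threshold, 4 passed it with array weights (Col3a1, Col6a1, Col6a3 and Col15a1) and 5 turned direction. With array weights the log2 fold change was 0.060 for Col4a2 and 0.051 for Col18a1. Leaving out 1 mouse gave log2 fold changes of -0.16 to 0.060 for Col4a2, -0.28 to 0.15 for Col18a1 and -0.51 to 0.0057 for Col4a5. The difference between the genotypes in the mean log2 ratio of Col1a1 over Col1a2 was then -0.16 to 0.095. The correlation of Col8a1 with Col8a2 was -0.21 to 0.53. The mouse that turned all but the difference in log2 ratio was KCASP1Tg 4. Without KCASP1Tg 4 this difference was 6.17e-05, and without WT 1 it was 0.095. The correlation of Col4a1 with Col4a2 was 0.40 without KCASP1Tg 4 (permutation p adjusted over the pairs 0.346). Collagen probe sets called lower numbered 0, against 5 with array weights and 0 to 1 with 1 mouse left out (1 without KCASP1Tg 4). Of all probe sets 0 were called lower (898 at an unadjusted p under 0.05, limma), against 1 with a floor of 16 or quantile normalization or without WT 4 and KCASP1Tg 3, 2 with a pseudocount of 50, median centring or no filter, 3 with a filter of 200 or an intensity trend, 63 with array weights, and 0 to 8 with 1 mouse left out. All probe sets called higher numbered 18, against 204 with array weights, 10 at an adjusted p under 0.01, 10 to 61 with 1 mouse left out (61 without KCASP1Tg 4), and 0 by the exact Mann-Whitney test. Collagen genes with every KCASP1Tg array below every WT array numbered 5, against 3 with median centring, 14 without WT 4 and KCASP1Tg 3 (3.47% of all genes), and 5 to 10 with 1 mouse left out. With the replicate number as a block, 0 probe sets were called higher and 0 collagen probe sets were called. Deviations of mice with the same number correlated at 0.11, -0.31, -0.43 and -0.33. These values show no pairing by number, but with so few mice they cannot exclude it. The causes of these differences were not tested. The settings for the counts of separate groups and for the ratios were chosen after seeing the data. The number of arrays and the low signal of 15 collagen genes limit what could be detected.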
